A study of Homo sapiens with 13 samples.

Results

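The RUNX family genes RUNX1, RUNX2 and RUNX3, their partner CBFB, and the ETO corepressor genes RUNX1T1, CBFA2T2 and CBFA2T3 were examined for chromatin occupancy by PTBP1 and RUNX1. These 7 genes were chosen by name from the 20033 protein-coding genes of GENCODE version 44. Peaks were taken from each gene and up to 10 kb either side, and the transcription start site (TSS) of every annotated transcript was examined.

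The study profiled the human cell line MOLM-13, an established model of acute myeloid leukemia, in 13 libraries. CUT&Tag, in which an antibody directs a transposase to cut DNA beside its target, was run with antibodies against PTBP1 and RUNX1 (2 libraries each) and with IgG as the control (1 library). CUT&RUN, in which a nuclease is directed in the same way, was run for PTBP1, RUNX1, H3K27me3 and IgG (2 libraries each). No genotype, treatment or time point is named for any group, and all libraries share the same line. The data analysed here were 2 deposited peak lists, 9370 peaks for PTBP1 and 7688 for RUNX1. They hold no expression values, so neither the RNA level of the 7 genes nor the cell type could be checked against markers.

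RUNX proteins bind DNA through the Runt domain and recognise the letters TGTGGT or TGCGGT. CBFB does not bind DNA itself but stabilises the binding of all RUNX proteins, and RUNX1 is required for the formation of blood stem cells. ETO family proteins are corepressors that are carried to DNA by transcription factors, and RUNX1T1 is best known as the part fused to RUNX1 by a recurrent translocation of acute myeloid leukemia. Each RUNX gene has a distal promoter, P1, and a proximal promoter, P2. PTBP1 is an RNA-binding protein that prefers pyrimidine-rich RNA and regulates splicing.

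Of the 7 genes, 6 had a peak of each list in the gene or its flanks, and RUNX1T1 had none in either. Over all protein-coding genes, a PTBP1 peak was found at 39.4% and a RUNX1 peak at 36.8%. The 7 genes are long, from 65.6 to 1217 kb against a median of 27.5 kb, and these shares are not adjusted for length. At a TSS, meaning within 1000 bases of any annotated start, 5 of the 7 genes held a peak of both lists (71.4%, 95% Wilson interval 35.9 to 91.8). These were RUNX1, RUNX3, CBFB, CBFA2T2 and CBFA2T3. With only the 5′ end of each gene as its start, the count fell to 3 in each list, and with only the canonical transcript it was 2 for PTBP1 and 4 for RUNX1. With any annotated start, the share over all protein-coding genes was 30.3% for PTBP1, 25% for RUNX1 and 20.3% for both. These shares are to be set beside the 5 of 7 genes only. The shares over all genes under the 2 narrower definitions are not given here. The 7 genes carried a median of 11 annotated start positions, against 5 for all protein-coding genes. Counted by start position, 17 of their 104 positions had a PTBP1 peak (16.3%) and 23 had a RUNX1 peak (22.1%), against 23.4% and 18.4% over all protein-coding genes. RUNX1T1 supplied 41 of the 104 positions, all without a peak, and over the other 63 positions the shares were 26.98% and 36.5%, so the PTBP1 share lies below that of all genes only with RUNX1T1 included.

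The 7 genes held 13 PTBP1 peaks and 18 RUNX1 peaks. The deposited fold enrichment of a peak is the number of fragments at its summit over the local background, with 1 added to each. Solving the deposited values for both numbers gave 12 to 32 fragments (median 21) at the PTBP1 summits and 9 to 173 (median 29.5) at the RUNX1 summits, against list medians of 21 and 20. Fold enrichment ran from 7.56 to 19.2 (median 12.8) for PTBP1 and from 5.59 to 130.8 (median 18.0) for RUNX1, against list medians of 12.2 and 15.0. At most sites the background was 0.720 fragments for PTBP1 and 0.330 for RUNX1, so a given fold enrichment stood for more fragments in the PTBP1 list. At the edge of the 10 kb flanks, the outermost peaks counted lay 8464 and 8515 bases beyond CBFB, with fold enrichments of 54.9 and 9.30. The nearest peaks left out lay 13.5 kb from CBFA2T2 (PTBP1, 8.14), 16.4 kb from CBFA2T3 (PTBP1, 40.7) and 16.8 kb from CBFA2T2 (RUNX1, 9.77). There was 1 list per target, hence no spread between replicates and no test. Intervals given for fragments are exact 95% Poisson intervals that cover counting error only.

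The 3 RUNX genes share a word of 14 letters, TGTGGTTCTGTGGT, which joins a pair of RUNX motifs at their distal starts. The word was chosen after the windows around the summits had been seen. The sites are shown because they mark where the 3 genes share this word and differ in peaks. They are given 5′ to 3′ on the strand of the gene, from hg38, with the word (read on the opposite strand) in capitals. RUNX1 and RUNX2 had 27 of these 30 bases in common, RUNX1 and RUNX3 19, and RUNX2 and RUNX3 21. Each count includes the 14 letters of the word, which match because the sites were chosen for it. The counts therefore do not measure likeness beyond the word.
RUNX1, chr21:35049259-35049288, minus strand: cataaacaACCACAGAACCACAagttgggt
RUNX2, chr6:45328338-45328367, plus strand: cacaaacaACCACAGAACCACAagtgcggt
RUNX3, chr1:24965120-24965149, minus strand: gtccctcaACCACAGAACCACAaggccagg

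In RUNX1 the word began 22 bases after the canonical start and lay in a RUNX1 peak but in no PTBP1 peak. In RUNX3 it began 20 bases before the most distal RUNX3 start and lay in a peak of both lists. In RUNX2 it began 16 bases after the canonical start and lay in no peak of either list. Chromosomes 1 to 22, X and Y held 90 copies of the word on either strand, and 7 of these lay within 200 bases of an annotated start. Besides the 3 RUNX genes, those starts belonged to ENSG00000253968, OR52N2, ADAM11 and DEPDC5, and none of these 4 copies lay in a peak of either list. A RUNX1 peak covered 3 of the 90 copies, at RUNX1, RUNX3 and a site on chromosome 11. Among 35116 RefSeq promoters of hg38, of 300 bases around a start, 3 held the word (0.00854%), at RUNX3, RUNX2 and OR52N2. The distal RUNX1 promoter, which holds the word, was not among the promoters searched. A single RUNX motif (TGTGGT or TGCGGT, either strand) was present in 19.6% of those promoters. The promoter table had 7 entries for 5 of the 7 genes, and the distal RUNX2 promoter held 5 motifs and the distal RUNX3 promoter 2, with 0 in the others.

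RUNX1 (ENSG00000159216.19, chr21:34787801-36004667, minus strand) held 11 RUNX1 peaks, the most of any protein-coding gene, ahead of PLEC with 10 and of SMAP2 and PDCD6-AHRR with 9 each. The gene also held 4 PTBP1 peaks, a number that 5.25% of protein-coding genes reached or passed. Its annotated span of 1217 kb compares with a median of 27.5 kb over protein-coding genes, and 955 kb of it lies upstream of the canonical start, reached by a few long transcripts. Scaled to length, flanks included, there were 0.889 RUNX1 peaks and 0.323 PTBP1 peaks per 100 kb. That PTBP1 value was above the 0.281 of RUNX2 but below those of RUNX3, CBFB, CBFA2T2 and CBFA2T3, which ran from 0.556 to 3.27. When every gene was limited to its canonical transcript, RUNX1 kept 8 RUNX1 peaks and came after PDCD6-AHRR with 9, level with AHRR, STK10 and SYN3. The standing of its PTBP1 count under that limit is not given here.

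**Figure D1:**
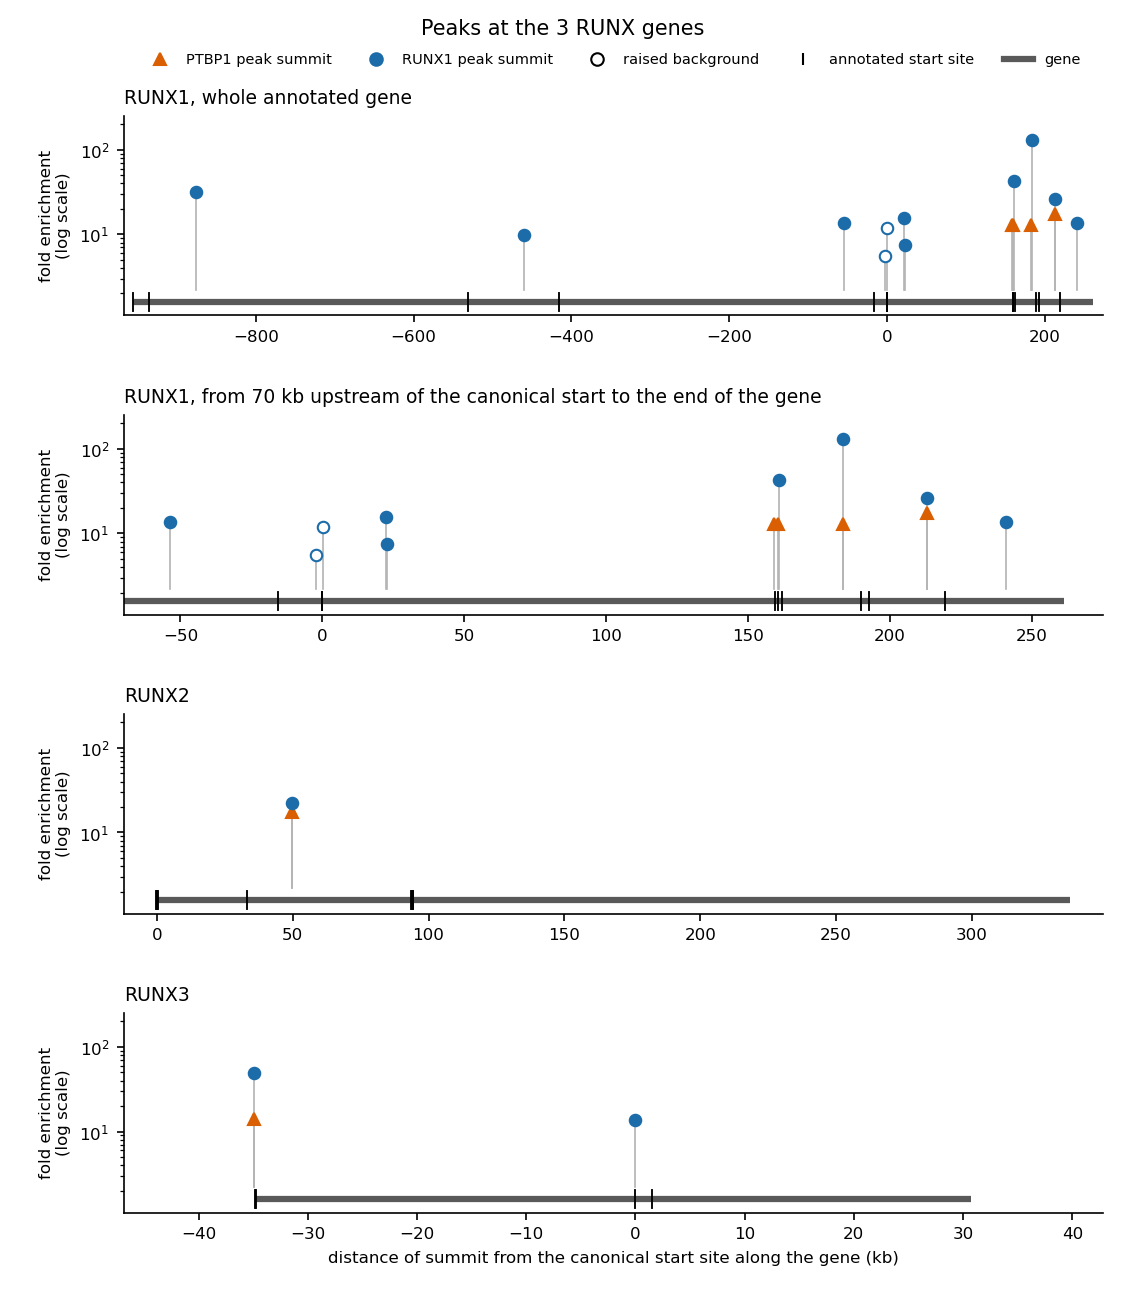
Fold enrichment (log scale) of each peak against the distance of its summit from the canonical start, in kb along the direction of transcription, for RUNX1 (whole gene, then enlarged), RUNX2 and RUNX3. Triangles are PTBP1 peaks, circles RUNX1 peaks, open circles peaks on a raised background, grey bars the gene and black ticks annotated starts: RUNX1 has 11 circles, the highest at 130.8, while RUNX2 has a single pair of peaks away from its starts.

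The strongest peak at RUNX1 lay in neither promoter. It covered chr21:34865382-34866368, in intron 5 of the canonical transcript and 22.9 kb downstream of the P2 start. It had a fold enrichment of 130.8 from 173 fragments (95% Poisson interval 148 to 200.8), which was above 99.6% of the RUNX1 list. A PTBP1 peak with its summit 12 bases away had a fold enrichment of 12.8 from 21 fragments (13.0 to 32.1), above 52.6% of the PTBP1 list. The same position thus stood near the top of the RUNX1 list and near the middle of the PTBP1 list. Both summits also lay inside ENSG00000286153, a lncRNA gene on the opposite strand, so these peaks cannot be assigned to RUNX1 alone. The bases around the RUNX1 summit held a RUNX motif that began 42 bases before it, shown here in capitals because it is the strongest peak of all 7 genes (hg38, plus strand).
RUNX1 intron 5, chr21:34865756-34865856: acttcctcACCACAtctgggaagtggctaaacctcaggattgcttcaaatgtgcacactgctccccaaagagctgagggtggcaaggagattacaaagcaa

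The proximal promoter, P2, had peaks of both lists. The RUNX1 peak there, chr21:34887775-34890866, was the widest at the 7 genes with 3092 bases, against a list median of 645. Its fold enrichment was 42.9 from 56 fragments (42.3 to 72.7). It spanned a pair of PTBP1 peaks, chr21:34888080-34888887 and chr21:34889782-34890283, each with a fold enrichment of 12.8 from 21 fragments. The RUNX1 summit lay 341 bases from the nearer PTBP1 summit, and that PTBP1 summit lay 33 bases upstream of a P2 start. A RUNX motif lay across the RUNX1 summit, in capitals in the 30 bases shown (hg38, plus strand).
RUNX1 P2, chr21:34888368-34888397: ggctcgcctcggACCACAgagcactttctc

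The distal promoter, P1, lies 160.6 kb from P2 and had a RUNX1 peak but no PTBP1 peak. That peak, chr21:35048795-35049454, had its summit 75 bases after the canonical start, in the 5′ UTR of exon 1, and the peak lay within 1000 bases of 5 start positions. Its fold enrichment of 11.8 was below the list median of 15.0, although 75 fragments (59.0 to 94.0) stood at its summit. The local background was 5.44 fragments, 16.5 times the usual value, and a second peak 2.13 kb upstream shared it, with a fold enrichment of 5.59 from 35 fragments (24.4 to 48.7). Both peaks at P1 were therefore ranked low by fold enrichment and high by fragments, and the part of the raised background in these values was not tested. Raised background was present at these 2 of the 18 RUNX1 peaks and at 0 of the 13 PTBP1 peaks, against 5.14% and 4.86% of the lists. Of the 16 start positions of RUNX1, 8 had a RUNX1 peak, at P1 and P2, and 3 had a PTBP1 peak, all at P2.

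Between the promoters, a pair of RUNX1 peaks lay in intron 2, 22.3 and 22.95 kb downstream of the canonical start. A blood stem cell enhancer of RUNX1 is known in the intron that follows the distal start. Whether these peaks fall on it was not tested. The nearer peak, chr21:35026713-35027203, had a fold enrichment of 15.8 from 20 fragments (12.2 to 30.9). The farther peak, chr21:35025981-35026355, had 7.52 from 9 fragments (4.12 to 17.1), above 2.12% of the RUNX1 list. No PTBP1 peak overlapped either of them.

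Downstream of P2, intron 6 held a RUNX1 peak of fold enrichment 26.3 from 34 fragments (23.5 to 47.5) and a PTBP1 peak of 17.4 from 29 fragments (19.4 to 41.6), with summits 8 bases apart. This position was also 142 bases from the start of the same lncRNA, ENSG00000286153, so the peaks cannot be assigned to RUNX1 alone. Intron 7 held a RUNX1 peak of 13.5 from 17 fragments (9.90 to 27.2). Upstream of the canonical start, 3 further RUNX1 peaks lay 53.9, 459 and 876 kb away, with fold enrichments of 13.5, 9.77 and 31.6. Over the gene, 8 of the 11 RUNX1 peaks did not overlap a PTBP1 peak, while all 4 PTBP1 peaks overlapped a RUNX1 peak. In the whole lists, 60.2% of RUNX1 peaks overlapped a PTBP1 peak and 49.2% of PTBP1 peaks overlapped a RUNX1 peak. Both PTBP1 peaks at P2 lay on the same RUNX1 peak, and both RUNX1 peaks on a raised background were among those without overlap. These few peaks of 1 gene are not read as a difference from the lists.

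RUNX2 (ENSG00000124813.23, chr6:45328157-45664349, plus strand), the regulator of bone formation, had 1 peak of each list and none at its own starts. The PTBP1 peak, chr6:45377477-45378538, was 17.4-fold enriched. The RUNX1 peak, chr6:45377520-45378464, was 22.6-fold enriched. Each stood on 29 fragments (19.4 to 41.6), and the summits were 19 bases apart. Both lay in intron 2, 49.6 kb downstream of the canonical start, between P1 and P2, which are 94.2 kb apart. They lay on the start of a transcript of the neighbouring gene SUPT3H, which runs through RUNX2 on the other strand, with summits 3 and 22 bases from that start. None of the 11 RUNX2 start positions had a peak within 1000 bases, although the distal promoter held the paired motif and 5 RUNX motifs in all.

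RUNX3 (ENSG00000020633.19, chr1:24899511-24965121, minus strand), which acts in lymphocytes and nerve cells, had peaks at both promoters. At the distal promoter the PTBP1 peak, chr1:24965013-24965732, and the RUNX1 peak, chr1:24964909-24965891, had the same summit, 54 bases upstream of the most distal start. The RUNX1 peak had a fold enrichment of 48.9 from 64 fragments (49.3 to 81.7), above 94.2% of its list. The PTBP1 peak had 14.0 from 23 fragments (14.6 to 34.5), above 58.7% of its list. The proximal promoter, 34.7 kb away, had a RUNX1 peak alone, chr1:24930020-24930488, of 13.5 from 17 fragments (9.90 to 27.2). RUNX1 and RUNX3 were thus opposite in where PTBP1 was listed, at P2 but not P1 of RUNX1, and at the distal but not the proximal promoter of RUNX3. This contrast is one of listing only. RUNX1 P1 had a raised background in the RUNX1 list, and PTBP1 signal too low to be listed was not tested at either promoter. The bases around the shared summit are shown with both RUNX motifs in capitals (hg38, plus strand), and they began 47 and 39 bases before the summit.
RUNX3 distal promoter, chr1:24965125-24965225: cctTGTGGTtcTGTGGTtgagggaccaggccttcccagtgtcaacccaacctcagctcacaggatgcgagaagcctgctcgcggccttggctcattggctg

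CBFB (ENSG00000067955.15, chr16:67028984-67101058, plus strand), the non-DNA-binding partner, had a peak of each list at its promoter. The PTBP1 peak, chr16:67028697-67029349, had a fold enrichment of 10.5 from 17 fragments (9.90 to 27.2), below the list median. The RUNX1 peak, chr16:67028963-67029877, had 20.3 from 26 fragments (16.98 to 38.1), above 68.5% of its list. The summits were 56 bases apart, and each peak reached 8 of the 12 start positions. No RUNX motif lay within 50 bases of either summit.

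A stronger RUNX1 peak lay in the downstream flank of CBFB, at the start of the next gene, PHAF1. It covered chr16:67109522-67111099 and had a fold enrichment of 54.9 from 72 fragments (56.3 to 90.7), above 95.5% of the list. A PTBP1 peak inside it, chr16:67109573-67110160, had 9.30 from 15 fragments (8.40 to 24.7), with its summit 967 bases from that of RUNX1. These peaks lay 8464 and 8515 bases beyond the end of CBFB, and their summits lay 535 and 226 bases from PHAF1 starts. They are counted here only through the 10 kb flank. Each summit had a RUNX motif, and the windows are shown because the motifs, in capitals, sit at separate places under overlapping peaks (hg38, plus strand).
CBFB flank, RUNX1 summit, chr16:67110632-67110732: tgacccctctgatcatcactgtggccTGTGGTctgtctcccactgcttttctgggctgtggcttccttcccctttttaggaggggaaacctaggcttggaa
CBFB flank, PTBP1 summit, chr16:67109665-67109765: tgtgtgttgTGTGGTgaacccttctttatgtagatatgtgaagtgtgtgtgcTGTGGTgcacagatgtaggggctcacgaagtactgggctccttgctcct

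**Figure D2:**
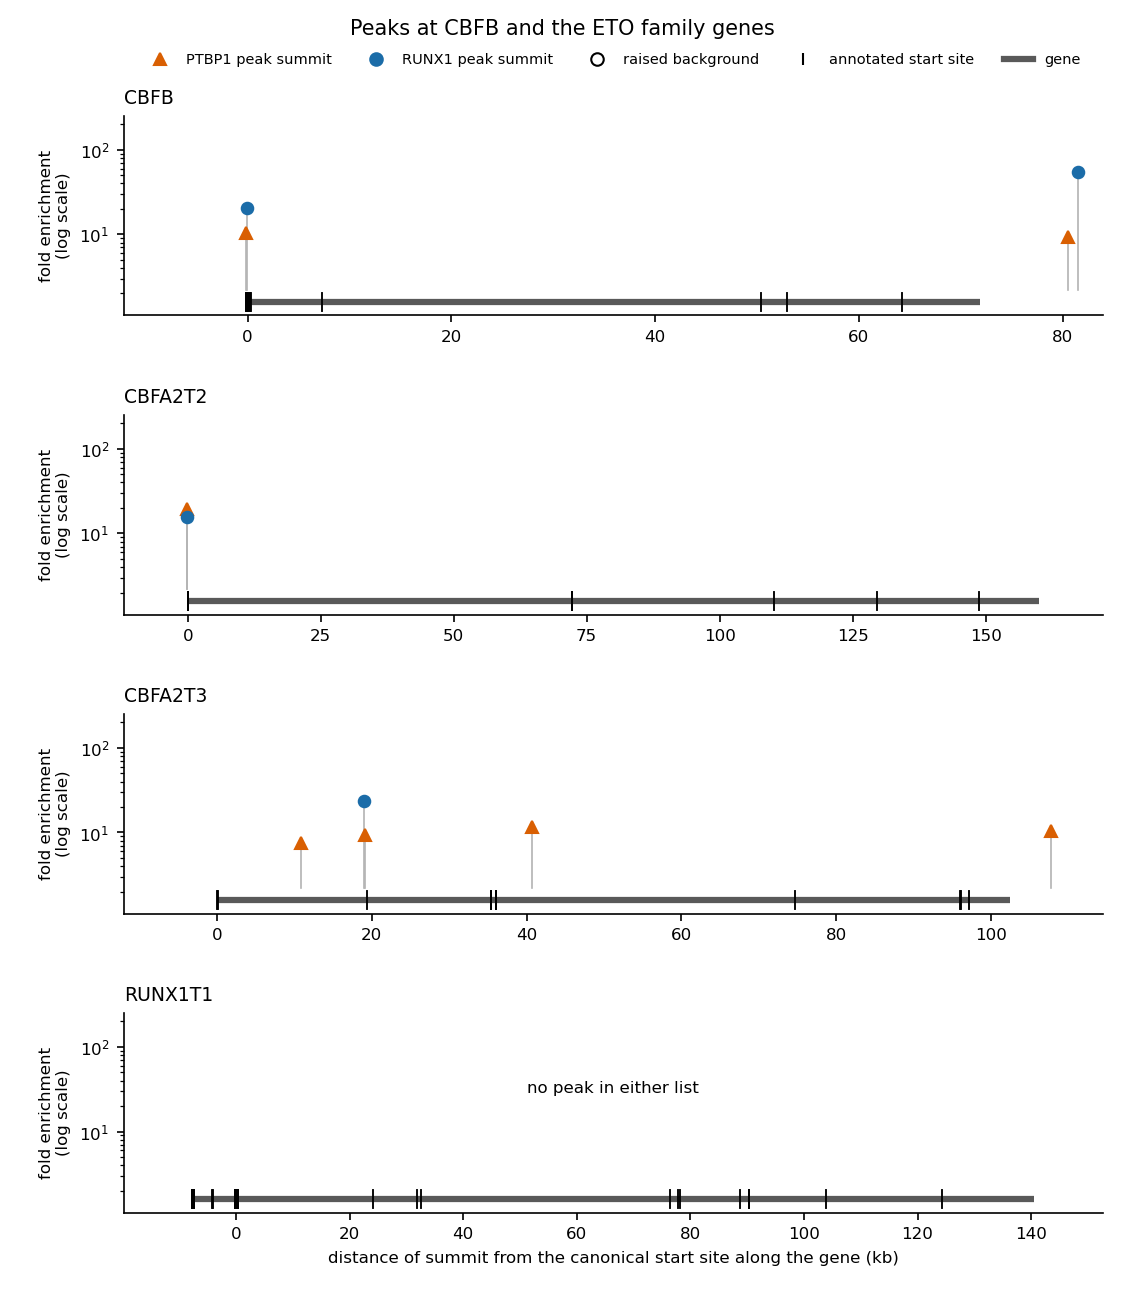
Fold enrichment (log scale) of each peak against the distance of its summit from the canonical start, in kb along the direction of transcription, for CBFB, CBFA2T2, CBFA2T3 and RUNX1T1. Triangles are PTBP1 peaks, circles RUNX1 peaks, grey bars the gene and black ticks annotated starts: CBFA2T3 has 4 triangles and 1 circle, and RUNX1T1 has none.

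CBFA2T2 (ENSG00000078699.22, chr20:33490075-33650036, plus strand) had 1 peak of each list, both at the promoter and upstream of the canonical start. The PTBP1 peak, chr20:33489597-33490144, had a fold enrichment of 19.2 from 32 fragments (21.9 to 45.2), the highest PTBP1 value at the 7 genes. The RUNX1 peak, chr20:33489567-33490287, had 15.8 from 20 fragments (12.2 to 30.9), near the median of its list. The summits were 5 bases apart, and 3 of 9 start positions lay within 1000 bases of each peak. No RUNX motif lay within 50 bases of either summit, and the window of the RUNX1 summit is shown for contrast with those above (hg38, plus strand).
CBFA2T2, chr20:33489901-33490001: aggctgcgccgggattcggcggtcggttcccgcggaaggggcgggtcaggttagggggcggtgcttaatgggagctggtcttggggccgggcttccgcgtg

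CBFA2T3 (ENSG00000129993.15, chr16:88874858-88977207, minus strand), a corepressor with a role in blood progenitors, was the member with more PTBP1 than RUNX1 peaks, 4 against 1. Its canonical start had a peak of neither list. The RUNX1 peak, chr16:88957773-88959220, lay in intron 1 at the start of a shorter transcript, with a fold enrichment of 23.3 from 30 fragments (20.2 to 42.8). A PTBP1 peak, chr16:88957980-88958276, had its summit 181 bases from that of RUNX1 and a fold enrichment of 9.30 from 15 fragments (8.40 to 24.7). While 49.2% of the whole PTBP1 list overlapped a RUNX1 peak, the remaining 3 PTBP1 peaks had none beside them. Of these, 2 lay in intron 1, 10.9 and 40.7 kb after the canonical start, with fold enrichments of 7.56 and 11.6, the latter 1201 bases from the start of the lncRNA ENSG00000261226. The last, of 10.5, lay 5064 bases beyond the end of the gene. The window of the PTBP1 summit at that internal start held a RUNX motif, in capitals (hg38, plus strand), and no motif lay within 50 bases of the RUNX1 summit nearby.
CBFA2T3 internal start, PTBP1 summit, chr16:88958003-88958103: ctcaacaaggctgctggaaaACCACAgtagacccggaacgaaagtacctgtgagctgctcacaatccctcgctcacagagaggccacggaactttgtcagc

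RUNX1T1 (ENSG00000079102.17, chr8:91954972-92103286, minus strand), which encodes ETO, had no peak of either list in the gene or its flanks. Its 148 kb carry 46 transcripts and 41 start positions, the most of the 7 genes. The nearest peak of either list was 862 kb away. Listed summits had at least 11 fragments for PTBP1 and 8 for RUNX1, so lower signal at RUNX1T1 would not have been listed.

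Ordered by fragments, the RUNX1 peak in intron 5 of RUNX1 stood first with 173, and its interval did not overlap that of any other peak at the 7 genes. RUNX1 P1 with 75, the CBFB flank with 72, RUNX3 distal with 64 and RUNX1 P2 with 56 followed, and their intervals overlapped, so counting error does not separate them. In the PTBP1 list, the highest (CBFA2T2, 32) and the lowest (CBFA2T3, 12) had intervals that did not overlap, 21.9 to 45.2 against 6.20 to 21.0. Values between them were not separated from their neighbours.

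**Figure D3:**
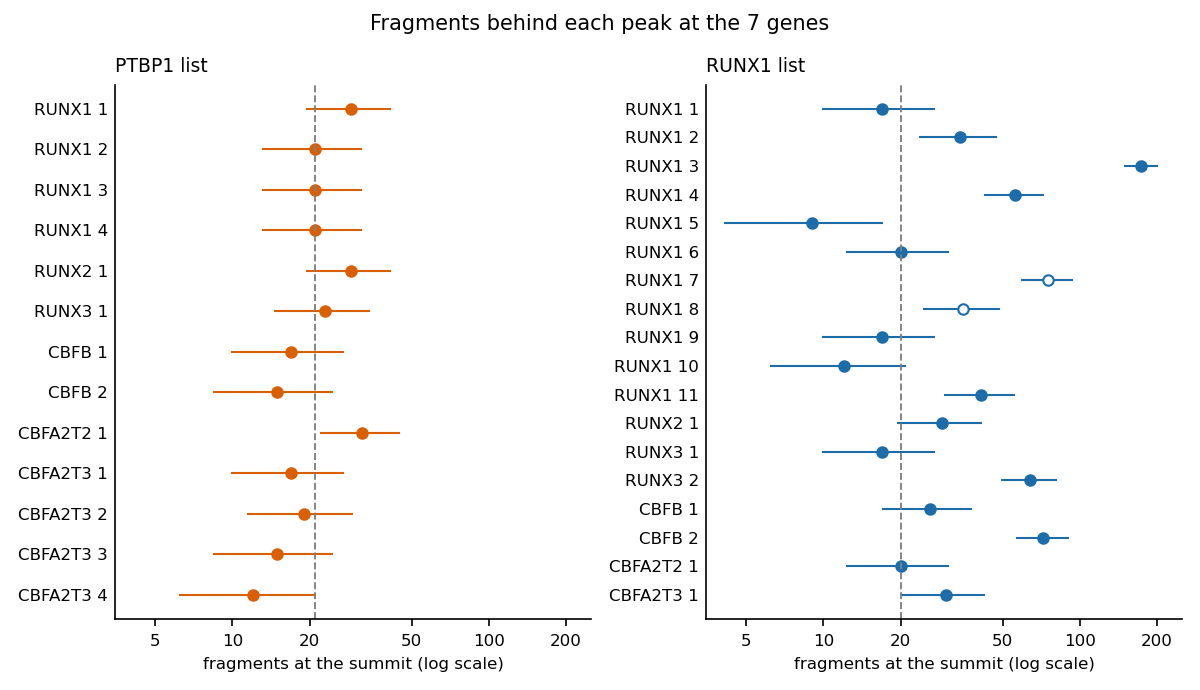
Fragments at the summit of each peak (log scale), with exact 95% Poisson intervals, for the 13 PTBP1 and 18 RUNX1 peaks; peaks are numbered along the chromosome within each gene. Dashed lines mark the list medians of 21 and 20, open circles mark a raised background, and RUNX1 peak 3, in intron 5, stands apart at 173.

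At least 1 base of a RUNX1 peak overlapped 10 of the 13 PTBP1 peaks (76.9%, Wilson interval 49.7 to 91.8), against 49.2% of the whole PTBP1 list. In the other direction, a PTBP1 peak met 9 of the 18 RUNX1 peaks (50%, 29.03 to 71.0), against 60.2% of the whole RUNX1 list. The interval for RUNX1 peaks includes the share of its list, and that for PTBP1 peaks starts at 49.7%, just above 49.2%. Both intervals count each peak as separate, which peaks of the same gene may not be. Both PTBP1 peaks at RUNX1 P2 overlap the same RUNX1 peak. The small margin is therefore not read as a difference from the list. The 3 PTBP1 peaks without a RUNX1 peak were all at CBFA2T3, and 8 of the 9 RUNX1 peaks without a PTBP1 peak were at RUNX1. RUNX1 peaks that overlapped a PTBP1 peak had a median fold enrichment of 26.3, and those that did not had 13.5. The overlapping peaks were also wider, with a median of 987 against 491 bases. Both RUNX1 peaks on a raised background were among those without overlap. The same split of the whole list is not given here, so the difference cannot be called particular to these genes.

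In 9 of the 10 overlapping pairs the RUNX1 peak had the higher fold enrichment, against 46.2% of the 4610 pairs of the whole list. Both PTBP1 peaks at RUNX1 P2 were paired with the same RUNX1 peak, so the 10 pairs are not all separate. The ratio of RUNX1 to PTBP1 fold enrichment had a median of 2.93, against 0.946 over all pairs. It ran from 0.823 at CBFA2T2, the exception, to 10.2 in intron 5 of RUNX1. Each list has its own background, so a ratio of 1 does not mark equal occupancy, and the share over all pairs is the value to read the pairs against. Summits lay within 200 bases of each other in 7 of the 10 pairs. The median gap between paired summits was 37.5 bases, against 81 over all pairs.

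**Figure D4:**
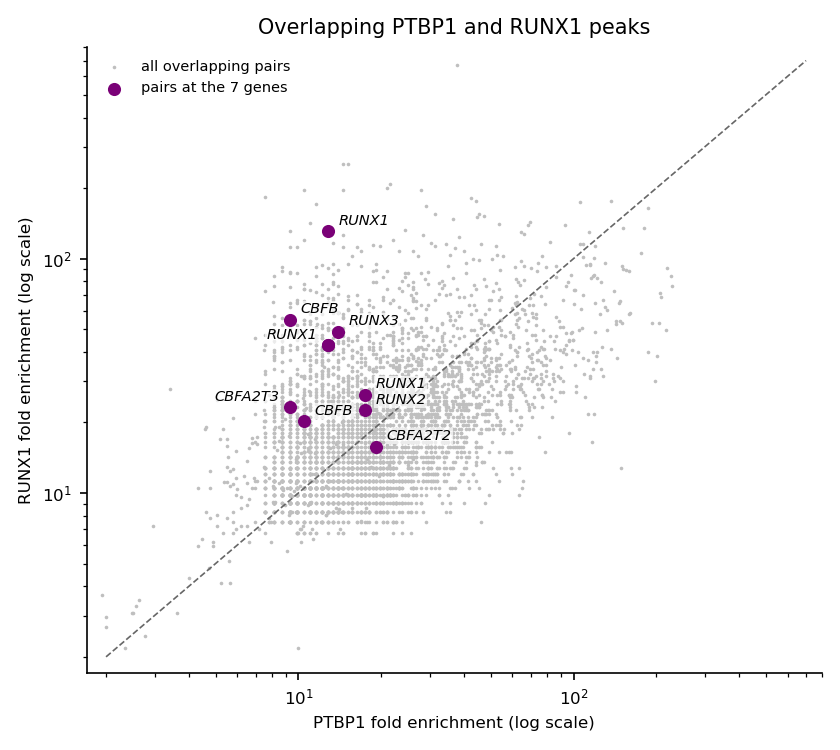
RUNX1 against PTBP1 fold enrichment (both log scales) for overlapping peaks, with 1 grey point per pair of the whole list and purple points for the 10 pairs at the 7 genes, of which 2 coincide at RUNX1 P2. The dashed line marks equal values: all purple points but CBFA2T2 lie above it, from 20.3 to 130.8 on the RUNX1 axis.

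A RUNX motif, TGTGGT or TGCGGT on either strand, began within 50 bases of 6 of the 18 RUNX1 summits (33.3%, 16.3 to 56.3), against 24.2% of the whole RUNX1 list. It did so at 3 of the 13 PTBP1 summits (23.1%, 8.18 to 50.3), against 8.79% of the PTBP1 list. Both intervals include the share of their own list. Of the 6 RUNX1 summits with a motif, 4 were at the RUNX1 gene, and the others were at RUNX3 and the CBFB flank. The 6 had a median fold enrichment of 45.9 (7.52 to 130.8), and the 12 without had 15.8 (5.59 to 31.6). The same split of the whole list is not given here, so the difference cannot be called particular to these genes. A run of 12 pyrimidines, C or T, on either strand lay at 8 of the 18 RUNX1 summits, against 17% of that list, and at 3 of the 13 PTBP1 summits, against 14.7%. No interval was computed for these runs, and 11 of the 18 RUNX1 peaks came from the RUNX1 gene. The higher share at RUNX1 summits was not tested and is not read as a difference from the list. The ETS core CCGGAA lay at 1 of 18 and 2 of 13 summits, against 6.5% and 6.55%. These are matches of letters and not measured sites.

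Among 30 genes of RUNX and ETO cofactors, 18 had a PTBP1 peak at a start (60%, 42.3 to 75.4), 17 a RUNX1 peak (56.7%, 39.2 to 72.6) and 13 both (43.3%, 27.4 to 60.8). The shares over all protein-coding genes were those given above for the 7 genes. The cofactor genes have a median of 14 start positions, more than the 7 genes and than all genes. Of the 12 corepressors that ETO proteins or RUNX1 recruit, 5 had both, among them HDAC2, SIN3A, TLE1 and TLE3. Of the 6 coactivators, 4 had both, namely the acetyltransferases EP300 and KAT6A and the methyltransferases KMT2A and PRMT1. Of the 12 DNA-binding or bridging partners, 4 had both, namely GATA2, GFI1, LMO2 and TCF3. No peak of either list lay in ETS1, LDB1, TBL1X, TBL1XR1 or YAP1 or their flanks, 5 of the 30 genes. Over all protein-coding genes, 46.7% had a peak of at least 1 list there, so such absence is common. RUNX1T1 shared that absence, unlike CBFA2T2 and CBFA2T3.

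Among 17 textbook RUNX1 target genes, 6 had a peak of both lists at a start (35.3%, 17.3 to 58.7), among them CDKN1A, ELANE, GFI1, HHEX and MYB. A PTBP1 peak lay at a start of 8 and a RUNX1 peak at a start of 6. The shares over all protein-coding genes were 20.3% for both, 30.3% for PTBP1 and 25% for RUNX1, and the interval for both includes the first of these. The target genes have a median of 4 start positions. CD34, CSF2, IL3 and PF4 had no peak of either list, while 46.7% of protein-coding genes had a peak of at least 1 list in the gene or its flanks. GFI1, SPI1 and CEBPA are in both gene lists.

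**Figure D5:**
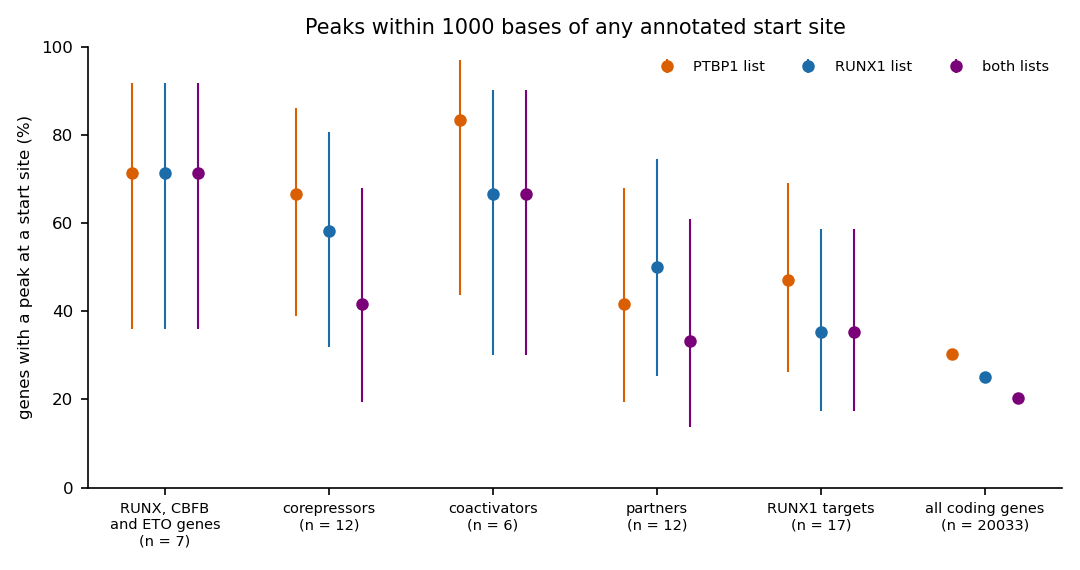
Share of genes with a peak within 1000 bases of any annotated start (%), with 95% Wilson intervals, for the PTBP1 list, the RUNX1 list and both. The 7 genes stand at 71.4% in all 3 counts and all protein-coding genes at 30.3%, 25% and 20.3%; the intervals of the small gene lists overlap one another.

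The protein-coding genes most like RUNX1 in their numbers of peaks were STK10, with 8 RUNX1 and 3 PTBP1 peaks, and CCDC12 and IQSEC1, each with 6 and 4. Likeness was the summed difference in the 2 peak numbers, which was 4 for STK10 and 5 for the other two, over 2 lists. All 3 genes are shorter than RUNX1, at 146, 60.3 and 386 kb.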

How the data were processed

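Per the labels and the methods, the authors mapped read pairs with Bowtie2 (hg38), discarded poorly mapped and duplicate pairs, and used MACS3 for peaks below a q-value of 1e-07. The submitters' processing notes also name FastQC, cutadapt, SAMtools, Picard and bedtools 2.30.0. The deposited lists name a target but no assay, and whether replicates were pooled is not given in the sources used here. They were taken as CUT&Tag lists, the assay for which peak calling is described. For each peak, the deposited lists give a fold enrichment (a ratio to the background), −log10 p-values and q-values, a score (the −log10 q-value times 10, as a whole number) and a summit position, all made by the authors with MACS3. Read totals were not used, so depth enters only through fragments at summits, and weaker sites are lost more readily where the background is higher.

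From the fold enrichment and −log10 p-value of each peak, a whole number of fragments and a background were solved, with a residual of at most 0.00134 in −log10 p. Background was called raised above 1.5 times its usual value. Genes, transcripts and start sites came from GENCODE version 44 (hg38, 1-based), with exons and introns of the canonical transcript at the summit. Motifs were searched in hg38 within 50 bases of the summit, and promoters came from RefSeq (GRCh38.p14). On simulated data, 497 of 497 fragment numbers, 150 of 150 start-site peaks and 372 of 372 planted motifs were recovered, with 0 of 350 false start-site calls. Python 3.11.15, pandas 2.3.3 and scipy 1.17.1 were used.

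The 7 genes and both gene lists were chosen with earlier results of these data known. All peaks at the 7 genes are described. From the cofactor and target lists, genes with a peak of both lists at a start are named by rule, apart from some that are not reported here. Those with no peak are named as well, after their values were seen. Neighbouring genes are named where a start lies at a peak. The genes like RUNX1 are the 3 with the smallest summed difference in peak numbers. With 1 list per target, no test between conditions was made. Alternatives changed the start-site definition, flanks, overlap rule, motif window and q-value. IgG, H3K27me3 and CUT&RUN libraries were not analysed here.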

Additional observations from a re-analysis of the deposited data

How the results depend on the processing

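Of 49 alternatives, 43 left the value within the limits set for no change and 6 did not. These limits were wide, so the tally does not show that values were stable. Within them were a fall in the overlap share of PTBP1 peaks from 76.9% to 53.8% with the summit rule. A fall from 13 to 9 cofactor genes with both peaks, with only the 5′ end as the start, also counted as no change. With only the 5′ end of each gene as its start, 3 of the 7 genes had a PTBP1 peak and 3 a RUNX1 peak at a start, in place of 5. With only the canonical transcript, 2 had a PTBP1 peak. Limiting genes to the canonical transcript, an alternative chosen after seeing the data, moved the RUNX1 gene from rank 1 to rank 2 by number of RUNX1 peaks. Leaving out RUNX1T1, also chosen after seeing the data, raised the shares of start positions with a peak to 26.98% for PTBP1 and 36.5% for RUNX1. Flanks of 0 or 25 kb gave 11 or 16 PTBP1 peaks and 17 or 20 RUNX1 peaks. When overlap was defined by summits within 200 bases, the shares became 53.8% of PTBP1 and 38.9% of RUNX1 peaks. The shares of the whole lists under that rule are not given here. The list shares above are for an overlap of at least 1 base and are not comparable. No paired analysis was possible because each target has 1 list without replicate columns, and leaving out replicates could not be run for the same reason. Absence from a list limits signal only to below the fragments that the q-value requires.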
